A study of Rattus norvegicus with 6 samples.

Results

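The heat shock response genes are described here in fibrotic and control rat liver. The list holds 10 genes named by symbol, the regulator Hsf1, the cytosolic chaperones Hspa8, Hsph1 and Hsp90aa1 with the J-domain proteins Dnajb1 and Dnaja1, the co-chaperone Bag3, the small heat shock protein Hspb1, and the mitochondrial pair Hspd1 and Hspe1. A member was any row of the deposited gene table that carried one of these symbols, which gave 9 of the 19616 genes listed. No row carried the symbol Hspe1, so its expression was not analysed here. The 9 genes passed the filter on low values, which asked for 0.1 FPKM or more on average.

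Liver RNA depleted of ribosomal RNA was sequenced from 3 rats of the FL group (FL2, FL5 and FL12) and 3 rats of the CL group (CL5, CL6 and CL7), 1 library for each rat. All were male SD rats, a common outbred laboratory strain. FL rats received CCl4, a solvent that injures hepatocytes and leads to fibrosis, mixed with an equal part of olive oil and injected intraperitoneally 2 times a week over 5 weeks at 2 mL/kg, and CL rats received olive oil alone at that volume. Expression was given as FPKM, the fragments of a gene scaled by transcript length and library size, so that levels of different genes can be set side by side. Values of single rats are given in the order CL5, CL6, CL7 and FL2, FL5, FL12 throughout.

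The heat shock response is the program by which cells meet damage to their proteins. Heat shock factor 1 is held inactive by chaperones, is released when unfolded proteins draw these away, and then binds repeated short elements in the promoters of chaperone genes. Many chaperones are also made without stress, and the liver, which secretes much protein, uses them for normal folding.

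The labels were first checked against the data. Albumin (Alb), the main secretory product of hepatocytes, stood at 33392, 31431 and 31992 FPKM in CL and at 24149, 25052 and 25209 FPKM in FL livers, as liver would give. For 8 of the 9 members found, the chromosome in the table was that of the gene in RefSeq (GRCr8). The exception was the row named Hspa8 (ENSRNOG00000032585), which lay on chromosome 5 in the table, whereas RefSeq places Hspa8 on chromosome 8. Hspa8 has many near-identical copies in mammalian genomes, and the values came from uniquely mapped reads, so its level here is uncertain.

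Rows outside the rule carried related descriptions, and they were looked up after the values had been seen. A gene on chromosome 8 described as heat shock cognate 71 kDa protein, which is the product of Hspa8, had 2.65 ± 0.448 FPKM (SD, n = 3) in CL and 2.27 ± 0.791 FPKM in FL livers. LOC680121 on chromosome 11, described as similar to the same protein, had 7.61 ± 0.46 FPKM and 10.4 ± 1.39 FPKM, without overlap between the groups (log2 fold change 0.44, adjusted p = 0.0556). LOC103692716, which lies on chromosome 6 like Hsp90aa1 and is described as HSP 90-alpha, had 9.56 ± 0.927 FPKM and 10.9 ± 3.54 FPKM. The rows named Hspa8 and Hsp90aa1 therefore held less than these, and how reads were divided among the copies was not tested.

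Of the 9 members, 1 was upregulated in the FL group and 0 were downregulated, at an adjusted p under 0.05 from limma, beside 16.9% of all 14864 genes tested that were upregulated and 1.94% that were downregulated. At an unadjusted p under 0.05 there were 2 members as deposited, beside 35.5% of all genes tested, 2 after median scaling (28.7%) and 4 under quantile normalization (26.7%). At the adjusted threshold median scaling left 0 members upregulated and 1 downregulated, beside 12.3% of all genes passing in either direction. Quantile normalization left none, beside 8.84% of all genes. The upregulated member was Hspb1, and it was also a differentially expressed gene (DEG) with a fold change of at least 2, as were 9.29% of genes tested in that direction. The 2 groups did not overlap for Hspb1, which was higher in the FL group, as 35.7% of all genes were, or for Hsph1, which was lower in the FL group, as 4.78% were. For the other 7 members the values of the groups overlapped. The median log2 fold change of the members was 0.03, against 0.29 for all genes tested, and 7 of the 9 lay below the median of all genes.

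That general shift matters for each fold change. With median scaling, which sets the typical gene equal between rats, the median over all genes became 0.08 and that of the members -0.19, and with quantile normalization they became -0.04 and -0.16. The share of calls that were upregulated was 89.7% as deposited, 70.9% with median scaling and 59.2% with quantile normalization. Fold changes are therefore also compared with that median, and they are on the log2(FPKM + 0.1) scale, which understates the change of genes with low FPKM.

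**Figure D1:**
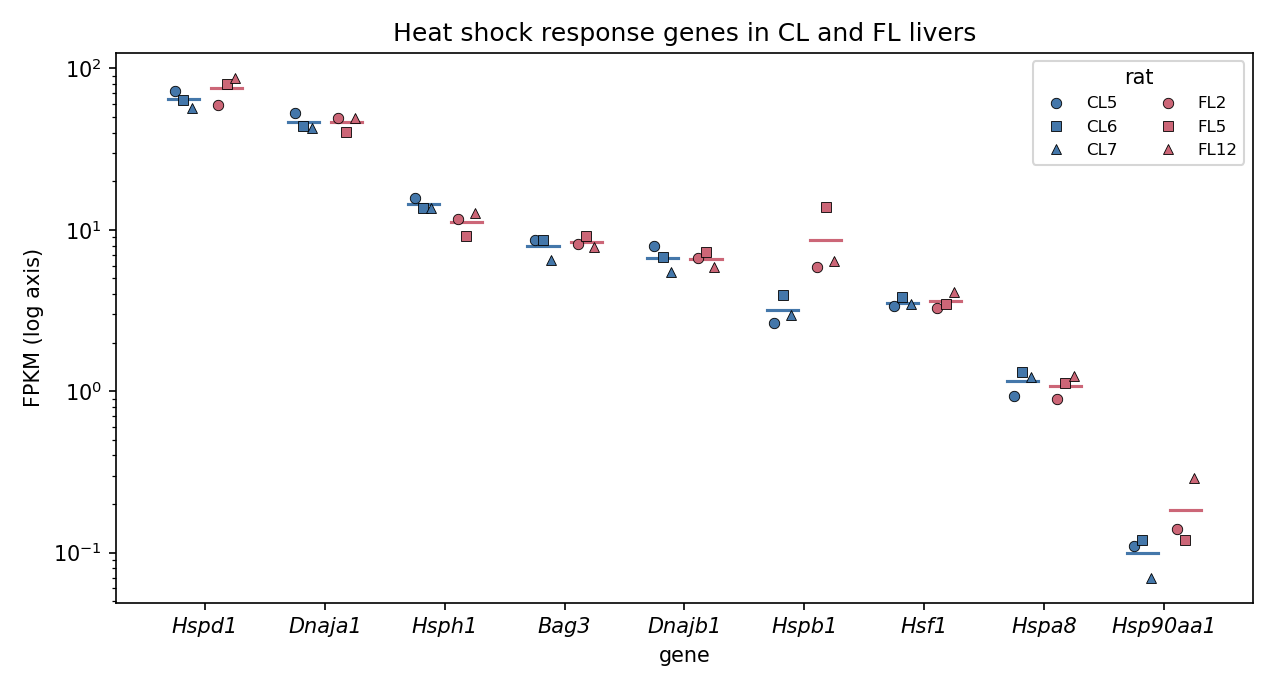
FPKM of the 9 heat shock response genes in each rat on a log axis, with CL rats in blue and FL rats in red; horizontal lines are group means over 3 rats. Hspb1 is higher in each FL rat than in any CL rat, Hsph1 is lower in each FL rat than in any CL rat, and the other genes overlap between the groups.

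Levels spanned a factor of 497 between the lowest and the highest member, as means over the 6 rats, and a factor of 19.6 without the rows named Hspa8 and Hsp90aa1. Hspd1 (70.3 FPKM) was the most abundant, followed by Dnaja1 (46.5 FPKM) and Hsph1 (12.8 FPKM). Next came Bag3 (8.15 FPKM), Dnajb1 (6.68 FPKM) and Hspb1 (5.94 FPKM), whose ranges over the rats overlapped, so that their order was not fixed beyond the spread. The range of Hspb1 also met those of Hsph1 and Hsf1, and in CL livers its mean (3.18 FPKM) was below that of Hsf1 (3.55 FPKM). Hsf1 (3.59 FPKM), Hspa8 (1.12 FPKM) and Hsp90aa1 (0.142 FPKM) had the lowest means over the 6 rats. Hspd1 stood above 97% of the genes tested in level and Hsp90aa1 above 4.1%.

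Hsf1, the transcription factor that drives the response, had 3.37, 3.81 and 3.46 FPKM in CL and 3.30, 3.47 and 4.13 FPKM in FL livers. The lowest and the highest value both came from FL rats, so the CL rats lay inside the range of the FL group. The log2 fold change was 0.03 with a standard error (SE) of 0.14 (adjusted p = 0.901), or -0.26 relative to the median of all genes, and its direction turned with either scaling (-0.19 and -0.33). Hsf1 is regulated largely at the level of its protein, which these data do not measure.

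The other heat shock factors and the proteins that bind them had 5 names fixed as a list, and 4 were tested with none passing, and 0 at an unadjusted p under 0.05 (limma). Hsf2, a second stress and developmental factor, had 7.73 ± 1.35 FPKM in CL and 7.11 ± 0.58 FPKM in FL livers. Hsbp1, which binds heat shock factor trimers and was the most abundant of the list, had 47.5 ± 2.18 and 51.9 ± 1.97 FPKM. The groups overlapped for each of the 4 genes.

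Among the cytosolic chaperones, Hsph1, the HSP110 protein that recharges HSP70 by exchanging its nucleotide, had 15.82, 13.71 and 13.57 FPKM in CL livers. FL livers had 11.62, 9.18 and 12.71 FPKM. Each FL rat was below each CL rat, with the smallest gap between FL12 and CL7. The log2 fold change was -0.37 (SE 0.15), or -0.66 relative to the median of all genes. It did not pass as deposited (adjusted p = 0.116) although it was the other member at an unadjusted p under 0.05, it passed with median scaling (-0.59, adjusted p = 0.0402) and not with quantile normalization (-0.57, adjusted p = 0.0611), and the adjusted p over the alternatives lay between 0.0402 and 0.296. FL5 had the lowest value, and without it the log2 fold change was -0.24.

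Hspa8, the HSP70 that folds proteins in unstressed cells, had 0.93, 1.31 and 1.22 FPKM in CL livers under the row discussed above. FL livers had 0.89, 1.12 and 1.24 FPKM. The groups overlapped almost fully, and the log2 fold change was -0.08 (SE 0.22, adjusted p = 0.816). It became -0.29 with median scaling (adjusted p = 0.396) and -0.61 with quantile normalization (adjusted p = 0.0831).

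Hsp90aa1, the stress-inducible HSP90, was listed at 0.11, 0.12 and 0.07 FPKM in CL and at 0.14, 0.12 and 0.29 FPKM in FL livers. These levels are close to the limit of 0.1 FPKM. Its SE of 0.41 was the largest of the members, against a median SE of 0.48 among the 1796 genes within 2-fold of its level, and the log2 fold change was 0.46 (adjusted p = 0.445). It was 0.10 with a pseudocount of 1, 0.74 with a pseudocount of 0.01, 0.21 without FL12 and -0.13 with quantile normalization. Hsp90ab1, the constitutive HSP90, is outside the 10 names and stood at 170 ± 23.6 FPKM in CL and 179 ± 44.4 FPKM in FL livers.

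The J-domain proteins hand clients to HSP70 and start its ATP cycle. Dnaja1 had 53.27, 43.73 and 42.73 FPKM in CL and 49.39, 40.57 and 49.12 FPKM in FL livers. Dnajb1, the partner most closely tied to heat stress, had 7.92, 6.80 and 5.46 FPKM and 6.73, 7.28 and 5.90 FPKM in the same order. For both genes CL5 was the highest of the 6 rats, and for Dnajb1 the 3 FL rats lay inside the range of the CL rats. The log2 fold changes were -0.01 for both (SE 0.14 and adjusted p = 0.981 for Dnaja1, SE 0.16 and adjusted p = 0.976 for Dnajb1), or -0.29 and -0.30 relative to the median of all genes, and both signs depended on which rat was left out. With median scaling both became -0.23.

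Bag3, a co-chaperone that links HSP70 and small heat shock proteins to autophagy, had 8.60, 8.62 and 6.50 FPKM in CL livers. FL livers had 8.20, 9.12 and 7.87 FPKM. CL7 was the lowest and FL5 the highest, and the groups overlapped. The log2 fold change was 0.09 (SE 0.15, adjusted p = 0.669), and it became -0.13 with median scaling.

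Hspb1 (ENSRNOG00000023546), a small heat shock protein that holds unfolding proteins and acts on the actin cytoskeleton, was the member with the lowest adjusted p as deposited, whereas with either scaling that of Hsph1 was lower. It had 2.63, 3.95 and 2.97 FPKM in CL livers (3.18 ± 0.685) and 5.89, 13.80 and 6.42 FPKM in FL livers (8.7 ± 4.42). All 3 FL rats were above the 3 CL rats, and FL5 was 2.34 times FL2. The fit gave a log2 fold change of 1.33 (SE 0.32, adjusted p = 0.0268), a fold change of 2.52, or 1.04 on the log2 scale relative to the median of all genes. The call was lost with median scaling (1.11, adjusted p = 0.0566), with quantile normalization (1.03, adjusted p = 0.0879), in limma without trend (adjusted p = 0.0559), without CL5 (adjusted p = 0.0847) and without CL7 (adjusted p = 0.0916). Over all alternatives the direction held and the adjusted p lay between 0.0207 and 0.0916, with a log2 fold change of 0.95 without FL5.

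Its SE was larger than the median of 0.15 among the 4706 genes within 2-fold of its level. The other small heat shock proteins gave 6 tested of 9 names, with 0 passing and 3 at an unadjusted p under 0.05 (limma), and a median log2 fold change of 0.57, which fell to 0.36 with median scaling and 0.25 with quantile normalization. With the latter Hspb11 was downregulated (adjusted p = 0.0391). Hspb8, the most abundant, had 25.1 ± 2.57 FPKM in CL and 28 ± 3.57 FPKM in FL livers.

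Markers of several cell types were read beside Hspb1, and 16.9% of all genes were upregulated as deposited. Of the 14864 genes tested, 1301 were upregulated with median scaling and 778 with quantile normalization. Of 9 stellate cell or myofibroblast markers tested, 6 were upregulated, and the summed level of the 10 listed was 82.2, 86 and 80.2 FPKM in CL and 203, 545 and 498 FPKM in FL livers. With median scaling 6 passed as well, and with quantile normalization 5. Collagen III (Col3a1) was the most abundant of them, and Col1a2 stood at 0.18 FPKM or below in each rat. Within the FL group Acta2, Tagln, Col1a1, Col1a2, Col3a1, Des and Lrat were highest in FL5, the rat with the most Hspb1, whereas Pdgfrb, Dcn and Lum were highest in FL12. FL5 was also the highest FL rat for 8 of 10 macrophage and 6 of 7 cycling markers. Over all markers with a value in the FL group it was the highest FL rat for 30 of 59. These counts are from values as deposited, and the share over all genes was not taken. The counts for FL5 were 4 of 8 for lymphocyte, 3 of 8 for hepatocyte and 2 of 7 for endothelial markers. They were 0 of 5 for cholangiocyte and 0 of 4 for neutrophil markers.

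Of 10 macrophage markers, 5 were upregulated, with sums of 184, 175 and 175 FPKM in CL and 374, 366 and 221 FPKM in FL livers and Clec4f in CL and C1qc in FL livers as the most abundant. Of 7 endothelial markers tested, 2 were upregulated (sums of 69.3 to 79.3 FPKM in the CL group and 80.4 to 93.2 FPKM in the FL group, with Kdr the most abundant in CL and Lyve1 in FL livers). Of 7 cycling markers 2 were upregulated, with sums of 5.10, 23.9 and 20.7 FPKM in FL livers against 3.03 to 5.80 FPKM in CL livers, and Mki67 was the most abundant. Neutrophil markers were upregulated in 3 of 3 tested and lymphocyte markers in 1 of 6, at sums under 7 FPKM in each rat (S100a8 was the most abundant neutrophil marker, Nkg7 in CL and Cd8a in FL livers were the most abundant lymphocyte markers, and Mpo was at 0 in each CL rat). With median scaling the upregulated markers were 3 for macrophages and 1 each for endothelial cells, cycling cells and neutrophils, and with quantile normalization 3 for macrophages and 1 for endothelial cells, with 0 for lymphocytes either way.

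Hepatocyte markers (0 of 8 upregulated or downregulated, 1 at an unadjusted p under 0.05) and cholangiocyte markers (0 of 5, and 1 at an unadjusted p under 0.05) did not pass in limma. Of the 8 hepatocyte markers, 5 nevertheless had groups that did not overlap, Apoa1 and Tf higher and Alb, Ttr and Apob lower in the FL group (35.7% and 4.78% of all genes). The SE in the fit was 0.98 for Alb, 0.48 for Tf and 0.42 for Ttr, against a median of 0.21 over all genes. At such SEs changes of the size seen could hardly pass, so the lack of calls does not show that these genes were unchanged. The hepatocyte sums were 51223, 48740 and 49225 FPKM in CL and 41659, 43262 and 42223 FPKM in FL livers, with Alb the most abundant. The cholangiocyte sums were 5.38 to 7.75 FPKM in the CL group and 5.38 to 11.3 FPKM in the FL group, with Epcam the most abundant. The part of these cell types in the level of Hspb1 was not tested. In bulk tissue, more cells of a type and more RNA per cell, or fewer and less, cannot be told apart.

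In the mitochondrion, Hspd1, the chaperonin that encloses unfolded proteins in a chamber closed by the Hspe1 lid, had 73.04, 64.20 and 57.23 FPKM in CL livers. FL livers had 59.65, 80.58 and 87.34 FPKM. FL5 and FL12 were above the CL rats, whereas FL2 lay among them. The log2 fold change was 0.21 (SE 0.17, adjusted p = 0.402), or -0.07 relative to the median of all genes, and it was -0.01 after median scaling and 0.20 under quantile normalization.

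**Figure D2:**
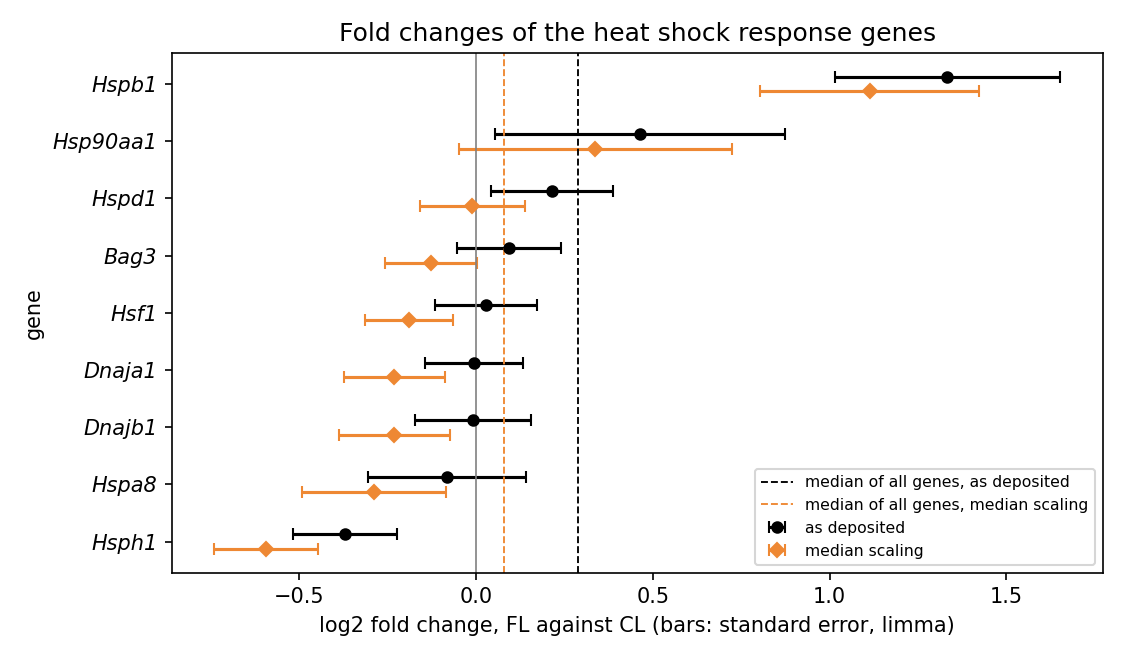
Log2 fold change of FL against CL for the 9 heat shock response genes with its standard error from limma, as deposited (black) and with median scaling (orange); dashed lines are the medians of all 14864 genes tested in each case. Hspb1 lies to the right of both medians and Hsph1 to the left, and the signs of Hspd1, Bag3 and Hsf1 turn with the scaling.

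As deposited, no single rat was the highest for all members. CL5 had the highest value of 3 members, FL12 of 3, FL5 of 2 and CL6 of 1, and CL7 had the lowest value of 4. This changed with median scaling, where CL5 was the highest for Bag3, Hspd1, Dnajb1, Dnaja1 and Hsph1. FL12 was then the highest for Hsp90aa1 only, and CL7 the lowest for Hsp90aa1 only. The summed FPKM of the members as deposited was 166, 146 and 133 in CL5, CL6 and CL7 and 146, 165 and 175 in FL2, FL5 and FL12, of which Hspd1 and Dnaja1 made the greater part. After median scaling Hspd1 stood at 78.4 in CL5 and 77.9 in FL12, and Dnaja1 at 57.2 and 43.8. CL5 in place of FL12 then had the highest sum.

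The mean profile of the members over the 6 rats, each centred on its own mean log2(FPKM + 0.1), was lowest in CL7 (-0.22) and highest in FL12 (0.18). It was taken without scaling. The factors by which median scaling divides a rat's values were also lowest in CL7 (0.889) and highest in FL12 (1.12). The profile and its nearest genes therefore hold the general shift between rats as well. Hsf1 lay nearest to this profile (root mean square distance 0.11) and Hspb1 farthest (0.70). Among 10527 other genes averaging 1 FPKM or more, the 5 nearest were Cog7, Rad21, Ppp1r12c, Ctnnd1 and Trpm7, at distances of 0.02 to 0.03, against a median distance of 0.23. They were picked for being nearest, so short distances are part of the choice. Among the members Hspb1, Hsph1 (0.33) and Hsp90aa1 (0.27) lay beyond that median, so the mean profile does not describe each member.

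Of the 96 other chaperone network genes listed by role, 87 were tested, and 7 were upregulated and 1 downregulated. This was 9.2% of them, against 18.9% of all genes tested in either direction, and their median log2 fold change was 0.18. With median scaling 2 were upregulated (Dnajb4 and Vbp1) and 5 downregulated (Clpx, Fkbp4, Ahsa2, Dnajb5 and Bag4), at a median of -0.03. This was 8.05% of them, against 12.3% of all genes (1301 upregulated and 533 downregulated). With quantile normalization 1 was upregulated (Vbp1) and 5 downregulated (Clpx, Ahsa2, Dnajb5, Bag4 and Hspb11), at a median of -0.07. The share was then 6.9%, against 8.84% of all genes (778 upregulated and 536 downregulated). Where 2 values are given below for the scalings, median scaling comes first.

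Among HSP90 beta and the HSP90 co-chaperones, 1 of 17 passed. It was Fkbp5, an immunophilin that tempers steroid receptors bound to HSP90 and is itself induced by glucocorticoids, with 2.21, 2.41 and 2.50 FPKM in CL and 3.93, 3.64 and 5.30 FPKM in FL livers. The fit gave a log2 fold change of 0.81 (SE 0.17, adjusted p = 0.0188), and the call was lost with median scaling (adjusted p = 0.0557) and quantile normalization (adjusted p = 0.155). Its relative Fkbp4 had 42.2 ± 3.31 FPKM in CL and 31.3 ± 5.6 FPKM in FL livers without overlap. That difference passed with median scaling (adjusted p = 0.0236), and not as deposited (adjusted p = 0.0749) or with quantile normalization (adjusted p = 0.0697). Ahsa2 was not past the threshold as deposited (log2 fold change -0.26, adjusted p = 0.202) and was past it with median scaling (-0.48, adjusted p = 0.0428) and quantile normalization (-0.52, adjusted p = 0.0434).

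Of 16 other J-domain proteins tested, 2 were upregulated. Dnajb4, a close relative of Dnajb1, had 3.20, 4.04 and 3.22 FPKM in CL and 7.12, 5.67 and 6.03 FPKM in FL livers (log2 fold change 0.83, SE 0.15, adjusted p = 0.0115), a call that was kept with median scaling (adjusted p = 0.042) and lost with quantile normalization (adjusted p = 0.0897). Dnajc13, which works on endosomes, had a log2 fold change of 0.62 (adjusted p = 0.0274) and passed with neither scaling (adjusted p = 0.0925 and 0.119). Dnajb5 was downregulated with both scalings (adjusted p = 0.0464 and 0.0361) and not as deposited (-0.29, adjusted p = 0.139). The most abundant of the list in CL livers was Dnajb2 and in FL livers Dnaja2, and Dnajb2 had 14 ± 1.51 FPKM in CL and 13.3 ± 1.57 FPKM in FL livers.

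None of the 8 other HSP70 and HSP110 genes tested passed in limma, and 0 did at an unadjusted p under 0.05. The strongly heat-inducible Hspa1b was listed at 0.13, 0.28 and 0.11 FPKM in CL and at 0.14, 0.75 and 0.04 FPKM in FL livers (SE 0.66), and its near-identical neighbour Hspa1a at 0.03 FPKM or below in each rat. The values came from uniquely mapped reads, so both levels are uncertain, as for Hspa8. Hspa4, the most abundant of the list, had 10.9 ± 0.341 FPKM in CL and 12.8 ± 2.22 FPKM in FL livers. None of the 6 BAG proteins and HSP70 co-chaperones tested passed, although 2 did at an unadjusted p under 0.05, and St13 was the most abundant at 27.9 ± 3.02 and 30.6 ± 4.5 FPKM. Bag4 was downregulated with median scaling (-0.68, adjusted p = 0.0319) and quantile normalization (-0.73, adjusted p = 0.0365), against -0.46 as deposited (adjusted p = 0.0663).

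Of 14 subunits of the cytosolic chaperonin and of prefoldin, 2 were upregulated. Vbp1, a prefoldin subunit that passes actin and tubulin to the chaperonin, had 6.60, 5.87 and 4.53 FPKM in CL and 9.05, 11.40 and 10.26 FPKM in FL livers. It had a log2 fold change of 0.85 (SE 0.17, adjusted p = 0.0136) and also passed with median scaling (adjusted p = 0.0319) and quantile normalization (adjusted p = 0.0461). Cct7 had a log2 fold change of 0.53 (adjusted p = 0.0379) and passed with neither scaling (adjusted p = 0.16 and 0.155). Tcp1, the most abundant in CL livers, had 39.5 ± 7.2 and 36.8 ± 7.03 FPKM, and in FL livers Cct5 was the most abundant.

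Of 11 other mitochondrial chaperones and proteases, 1 was downregulated and none upregulated. Clpx, which unfolds proteins for the matrix protease Clpp, had 88.89, 91.71 and 79.07 FPKM in CL and 58.62, 49.98 and 38.71 FPKM in FL livers. Each FL rat was below each CL rat, and the log2 fold change was -0.83 (SE 0.17, adjusted p = 0.0146), a call that was kept with median scaling (adjusted p = 0.0134) and quantile normalization (adjusted p = 0.0184). Clpx was the most abundant of the list in CL livers and Hspa9, the HSP70 that works ahead of Hspd1, in FL livers, and Hspa9 had 72.4 ± 4.98 FPKM in CL and 76.2 ± 9.05 FPKM in FL livers.

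Of 5 other heat-inducible genes tested, 2 were upregulated. Serpinh1, a chaperone of collagen that carries the heat shock elements of its class, had 9.18, 7.78 and 8.27 FPKM in CL and 10.93, 25.14 and 17.47 FPKM in FL livers (adjusted p = 0.0385). Its fold change rounded to 2 and was under the limit for DEGs. As with Hspb1, FL5 was the highest. Hmox1, which degrades heme, had a log2 fold change of 1.06 (adjusted p = 0.0384) and was highest in FL2 and FL5, and the most abundant gene, Sqstm1, had 148 ± 21.5 and 174 ± 22.6 FPKM. Both calls were lost with median scaling (adjusted p = 0.0899 for Serpinh1 and 0.105 for Hmox1) and with quantile normalization (adjusted p = 0.104 and 0.116).

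**Figure D3:**
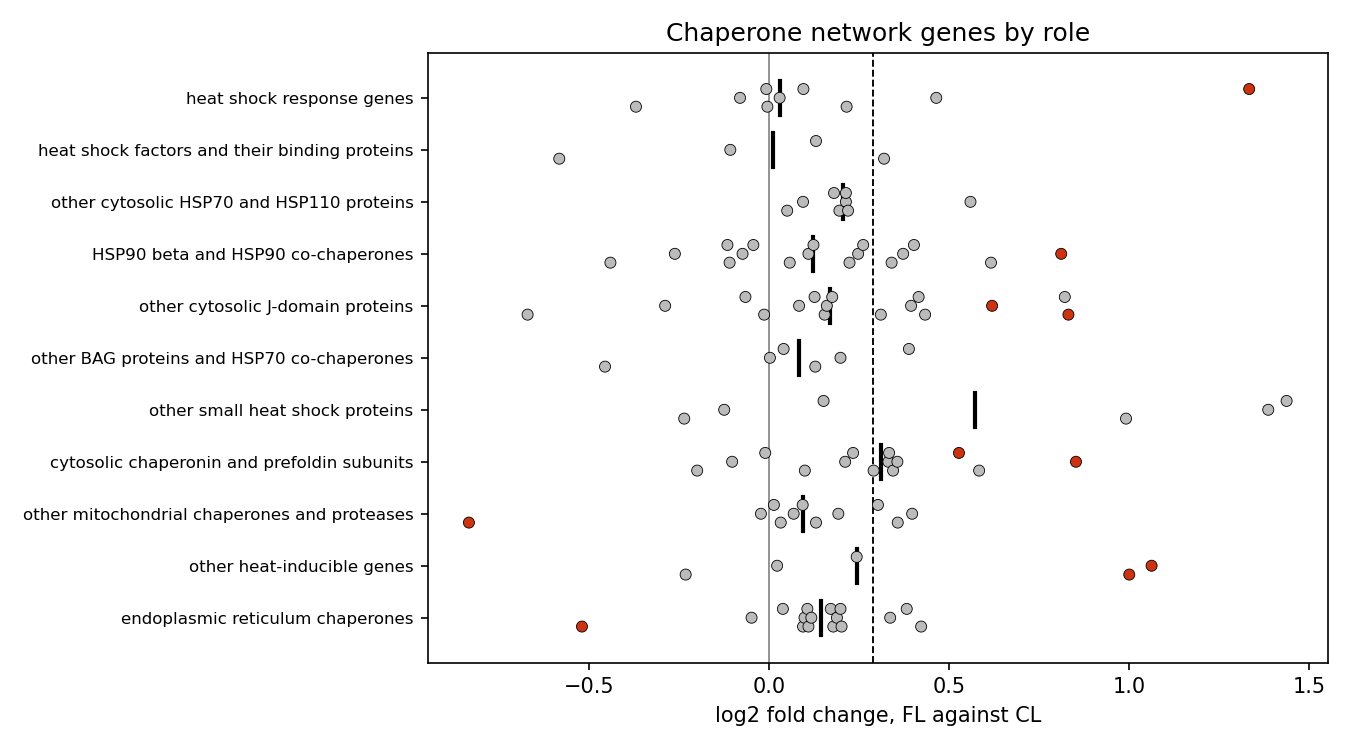
Log2 fold change of FL against CL for each tested gene of the heat shock response, of the other chaperone network lists and of the endoplasmic reticulum chaperones, with genes at an adjusted p under 0.05 in red and the median of each list as a bar; the dashed line is the median of all genes tested, 0.29. Hspb1 is the gene in red among the members, and with median scaling it is no longer past the threshold.

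The chaperones of the endoplasmic reticulum, which answer to another stress pathway, were set beside the members. Of 16 tested, 0 were upregulated and 1 was downregulated, Dnajb9 (log2 fold change -0.52, adjusted p = 0.047 from limma), which also passed with both scalings. The FL group was split by 1 rat, since 14 of the 16 genes were highest in FL2. Hspa5 had 251.33, 223.86 and 204.59 FPKM in CL and 421.46, 219.49 and 187.75 FPKM in FL livers, and Calr, the most abundant, 985.18 FPKM in FL2 against 404.22 to 614.23 FPKM in the other rats.

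No member of the heat shock response was highest in FL2, and 0 of the 17 HSP90 genes and 0 of the 11 other mitochondrial genes were. The ratio of FL2 to the mean of FL5 and FL12 had a median of 0.868 over the members and of 2.03 over the endoplasmic reticulum chaperones. In the other chaperone network lists this median lay between 0.67 and 0.934, so a ratio below 1 was not particular to the members. The ratios are as deposited, and the factors of median scaling were 1.03 in FL2, 1.1 in FL5 and 1.12 in FL12. They describe 1 library and were not tested. Without FL2 the log2 fold change was 0.38 for Hspd1 and 1.56 for Hspb1, and 14 of 86 chaperone network genes passed (16.3%), beside 23.8% of all genes tested.

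Lists that change with body temperature and time of day were also read. Rbm3, an RNA-binding protein that rises in the cold, had 3.40, 3.50 and 3.52 FPKM in CL and 6.81, 9.09 and 8.42 FPKM in FL livers (log2 fold change 1.19, SE 0.14, adjusted p = 0.00368), and it passed with both scalings. Its relative Cirbp had 3.73 ± 0.412 FPKM in CL and 4.98 ± 0.407 FPKM in FL livers (adjusted p = 0.0823). By group means Cirbp was the more abundant of the 2 in CL livers and Rbm3 in FL livers. The order in CL livers did not hold in CL6, where Cirbp had 3.27 FPKM and Rbm3 3.50 FPKM. Of the clock genes in the phase of Dbp 9 of 10 were upregulated, beside 16.9% of all genes tested. Of those in the opposite phase 4 of 5 were downregulated, beside 1.94%. These counts were 8 and 5 once scaled by the median, beside 1301 upregulated and 533 downregulated of all 14864 genes. Under quantile normalization they were 7 and 5, beside 778 and 536. Several chaperone genes follow daily rhythms of temperature in the liver, and the part of time of day or temperature in the members' values was not tested.

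The genes of the list with a promoter window share a sequence feature that the rule did not use. Heat shock factors bind runs of inverted GAA units, and a search was made for pairs of units as GAANNTTC and TTCNNGAA, both of which read the same on both strands. A run of 3 units was counted where the 2 motifs overlapped by their 3 shared letters. Windows of 250 bases before to 50 bases after the start were taken from RefSeq (build GRCr8) and matched by symbol for 8 of the 10 names, without Hsf1 and Hsp90aa1 and with Hspe1, which has no row in the table.

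A pair was found in 8 of these 8 windows, against 15.9% of all 33469 windows, and a run of 3 units in 5 of the 8 (Hspa8, Hsph1, Dnaja1, Hspd1 and Hspe1), against 0.798% of all windows. Hspd1 and Hspe1 count here as 2 although they share 1 stretch. Of 76 windows of other chaperone network genes, 17 held a pair and 3 a run of 3 units (Cct4, Chordc1 and Serpinh1), and of 13 windows of endoplasmic reticulum chaperones 0 held either. Such a match is a description and not evidence of binding. The members were named as heat shock genes, so a high share is part of what the group is known for.

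Stretches are shown for the 2 members whose groups did not overlap. Hsph1 held a run of 3 units between bases -36 and -24 from the start, and Hspb1 held pairs from -129 to -122 and from -109 to -102. They are written on the strand of the gene from 5′ to 3′, with the matched letters in capitals. The Hspb1 stretch lies upstream of the start on the minus strand at chr12:26432402-26432431, and the Hsph1 stretches lie upstream on the plus strand at chr12:10427324-10427352 (run of 3 units) and chr12:10427252-10427281 (pair).
Hspb1: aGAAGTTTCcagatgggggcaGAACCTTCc
Hsph1, run: gccgcagaTTCTGGAAAGTTCtcctcagt
Hsph1, pair: gggtggaatctTTCTCGAAggctcgagaag

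Hspa8 held 2 runs, from -213 to -201 and from -55 to -43, at the gene on chromosome 8 and not at the row listed on chromosome 5. The Bag3 window held a pair from -132 to -125. Dnajb1 had a pair at -11 to -4 and another after the start, and the run of Dnaja1 lay after the start, from 10 to 22.

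Hspd1 and Hspe1 lie head to head on chromosome 9, and their RefSeq spans share 6 bases. Their windows overlap, so both hold the same 18 letters, which form 2 overlapping runs, counted from -65 to -48 from the start of Hspe1. The start used for the Hspd1 window lies 295 bases inside the gene as RefSeq spans it, so positions relative to it are not given. In the other 7 windows the start was the 5′ end of the gene.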

How the data were processed

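The authors trimmed the reads, mapped them with TopHat2, kept those that mapped uniquely and deposited a table of FPKM with 2 decimals. The labels and the paper name the human build GRCh38, whereas the gene identifiers in the table are those of Ensembl for the rat, so the rat build and annotation release behind the values are not known. The table held 2 further columns of values under names that no sample of the series has, and these were left out. Rats were grouped by their labels. The members and lists were chosen with earlier results of these data known.

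FL and CL rats were compared on log2(FPKM + 0.1) with limma, its prior variance following expression, for the 14864 genes averaging 0.1 FPKM or more and with no scaling between rats. Adjusted p-values came from limma, by the Benjamini-Hochberg method across these genes, with a threshold of 0.05, and DEGs also needed a fold change of at least 2. The following alternatives were run: pseudocounts of 1 and 0.01, no filter, a filter at an average of 1 FPKM, median scaling (on 9201 genes above 1 FPKM in each rat), quantile normalization, a robust prior, no trend, a fold change of at least 2, and each rat left out. The fit was tested on simulated data.

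The depth of each library is unknown, since counts of reads were not analysed here and the paper gives its number of cleaned reads without naming libraries. U6 genes have similar lengths, and the steps between their low FPKM gave a depth relative to CL5 of 0.656 to 1 among CL rats and 0.677 to 0.75 among FL rats; 65.9% to 88.2% of these values lay within 0.1 of a whole step. FPKM summed to between 272110 and 340467. No pair of rats had more than 2.54% of its values identical. Genes named were the members, in each pathway list those past the threshold (at most 4 in each direction), chaperone network genes past it with either scaling, the most abundant genes over the 6 rats or in either group, the 5 genes of nearest profile, and the cell type markers. Named outside this rule were Hsf2, Hspa1a, Hspa1b, Hspa5 and the rows and genes described by copy or motif. R 4.3.3, limma 3.58.1, Python 3.11.15, numpy 2.4.6, pandas 2.3.3 and matplotlib 3.10.9 were used.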

Additional observations from a re-analysis of the deposited data

How the results depend on the processing

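The log2 fold changes of the members gave 125 values under the alternatives, of which 103 kept their direction and side of the threshold, and 16 reversed, all of them for members that did not pass. Hspb1 lost its call under 5 alternatives and Hsph1 gained one with median scaling. With median scaling, reversed values were -0.13 for Bag3, -0.19 for Hsf1 and -0.01 for Hspd1, and with quantile normalization -0.16 for Bag3, -0.33 for Hsf1 and -0.13 for Hsp90aa1. Leaving out each rat in turn gave log2 fold changes from -0.039 (without CL7) to 0.16 (without CL6) for Bag3, from -0.064 (without CL7) to 0.10 (without CL5) for Dnaja1, from -0.15 (without CL7) to 0.12 (without CL5) for Dnajb1, from -0.064 (without FL12) to 0.094 (without FL2) for Hsf1 and from -0.22 (without CL5) to 0.042 (without FL2) for Hspa8, so these 5 signs rested on single rats.

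The counts of upregulated and downregulated genes, 2518 and 288, became 1301 and 533 with median scaling, 778 and 536 with quantile normalization, and 1381 and 139 with a fold change of at least 2. Members that passed numbered 1 as deposited and 0 with quantile normalization and in limma without trend. With median scaling 1 passed, Hsph1 in place of Hspb1. Chaperone network genes that passed numbered 8 (9.2%, against 18.9% of all genes tested). They numbered 4 in limma without trend (4.6% against 15.1%) and 1 with a fold change of at least 2 (1.15% against 10.2%). Leaving out 1 rat gave 938 to 3198 upregulated and 121 to 338 downregulated genes, 0 to 1 members and 2 to 14 network genes. The share of network genes lay between 2.3% without CL7, against 7.11% of all genes, and 16.3% without FL2, against 23.8%. The cause of these shifts was not tested. No paired analysis was possible because the paper divided separate rats at random between the groups. The number 5 occurs in both groups and marks different rats. The number of rats, 3 in each group, limits the precision, and without read counts the depth behind Hsp90aa1 and other genes near 0.1 FPKM is unknown.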
